A study of Mus musculus with 11 samples.

Results

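The growth factor genes examined here were 10 of the 55536 genes measured in pancreatic islets, chosen by their symbols. They were the EGF receptor *Egfr* and its ligands *Hbegf*, *Areg*, *Ereg* and *Btc*, the ligand *Hgf* and its receptor *Met*, the insulin-like growth factors *Igf1* and *Igf2*, and *Ctgf*, which the files list under its current symbol *Ccn2*. Bulk RNA-seq was performed with islets from wild type (C57BL/6J) female mice that were 9 weeks old at the start. Mice labelled multipara had completed 3 pregnancies and were studied 3 weeks after the last delivery, with virgin littermates as controls. Mice of either kind received S-961, a peptide that blocks the insulin receptor, or no treatment. There were 3 libraries labelled virgin S-961, 4 multipara S-961, 2 virgin untreated and 2 multipara untreated, named here by these labels. The S-961 libraries are as many as the mice the study counts in those groups, and for the untreated libraries the number of mice is not given in the sources used here. The comparisons ask how islet growth factor transcripts differ with insulin receptor blockade and with earlier pregnancies. The genes were chosen with earlier results of these data known.

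EGFR is a receptor tyrosine kinase of the cell surface. Its ligands are made as membrane-anchored precursors that are cut free by ADAM proteases, and the bound receptor drives the RAS and ERK cascade, which induces its own inhibitors of the Dusp, Spry and Spred families. HGF activates the receptor tyrosine kinase MET after its inactive precursor has been cleaved by a serine protease. IGF1 and IGF2 signal through the IGF1 receptor and the insulin receptor by way of the adaptors IRS1 and IRS2, and their access is set by binding proteins. CCN2 is a secreted matrix-associated protein and a common target of the YAP coactivator. All of these systems have been linked to beta cell growth in rodents.

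*Areg*, *Ereg* and *Btc* lay within 328 kb of each other on chromosome 5 of the mouse genome GRCm38, between positions 91074622 and 91402994, with *Areg* and *Ereg* on the plus strand and *Btc* on the minus strand. The EGF modules of their coding sequences were read from the GENCODE M21 transcripts. They are shown because this module is the part that binds the receptor and is shared by these 3 weakly expressed EGFR ligand genes. The codons of the 6 cysteines are in capitals, and each sequence runs from the first to the last of them.
Areg: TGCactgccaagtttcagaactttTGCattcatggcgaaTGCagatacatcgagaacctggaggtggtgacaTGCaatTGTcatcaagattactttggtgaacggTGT
Ereg: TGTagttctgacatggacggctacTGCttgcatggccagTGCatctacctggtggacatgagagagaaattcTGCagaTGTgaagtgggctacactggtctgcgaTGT
Btc: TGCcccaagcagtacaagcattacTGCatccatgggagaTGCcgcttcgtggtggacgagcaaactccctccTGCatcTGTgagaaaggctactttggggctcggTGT
Each module covers 36 codons, and the 6 cysteines stand at the same positions in all 3. The modules were located by a pattern of 6 cysteines with fixed or narrowly limited gaps, so that this likeness was largely set by the search. *Ereg* and *Btc* shared 16 of the 36 residues (44.4%), *Areg* and *Btc* 14 (38.9%) and *Areg* and *Ereg* 12 (33.3%). These counts include the 6 cysteines.

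Total counts ran from 22028507 to 32234146 per library. Beta cell markers summed to 120267 to 226035 CPM (read counts scaled to a common library size) with S-961 and 455162 to 612554 without, alpha and delta markers were found in every library, and *Ins1* and *Ins2* took 13.2% to 20.7% of all counts with S-961 and 35.3% to 41.4% without. All CPM values, these marker sums included, were scaled with TMM factors, which limit the weight of such abundant genes. The factors were 0.720 to 0.845 without S-961 and 1.07 to 1.30 with it, so that CPM sums are not shares of all counts. The library labelled multipara S-961 4 stood closer to virgin S-961 1, 2 and 3 (chi-square per gene of 9.77, 11.8 and 45.6) than to multipara S-961 1, 2 and 3 (58.2, 80.3 and 95.9). Whether its label is right cannot be told from these data, and the differences between multipara and virgin with S-961 are also given without it. Other S-961 libraries also did not group by parity in this measure. Multipara S-961 1 stood closer to virgin S-961 1 and 2 (51.5 and 46.3) than to multipara S-961 3 and 4 (64.7 and 58.2), with 48.4 to multipara S-961 2. Virgin S-961 3 stood closer to multipara S-961 4 (45.6) than to virgin S-961 1 and 2 (58.7 and 64.5). Multipara S-961 3 had the highest sum of 8 stromal markers, 293 CPM, with 164, 148 and 133 CPM in multipara S-961 1, 2 and 4 and 68.2, 71.0 and 72.3 CPM in virgin S-961 1 to 3. Multipara untreated 1 had a macrophage marker sum of 846 CPM against 190 to 220 in the other untreated libraries, the highest lymphocyte sum (1060 CPM against 44.5 to 822) and the highest untreated stromal sum (157 CPM against 62.2 to 99.7). Acinar markers summed to 1650 to 12713 CPM with S-961 and 38.1 to 159 without. This difference divides the libraries exactly as the treatment does, so that it cannot be told apart from the treatment here. Its part in the S-961 differences below was not tested. In bulk samples fewer cells of a type and less RNA per cell cannot be told apart.

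The other members lie on several chromosomes of GRCm38. *Hbegf* lies on chromosome 18 (36504927 to 36515805), *Egfr* on 11 (16752203 to 16918158), *Hgf* on 5 (16553495 to 16620152), *Met* on 6 (17463800 to 17573980), *Igf1* on 10 (87858265 to 87937042), *Igf2* on 7 (142650766 to 142666816) and *Ccn2* on 10 (24595442 to 24598683). Antisense genes overlap *Egfr*, *Ereg*, *Igf1*, *Igf2* and *Ccn2*, and their counts were at most 0.901 CPM (*Igf2os*). Since the strand setting of the counting is not given in the sources used here, reads of these genes and their antisense partners cannot be told apart.

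Per kilobase of annotated exon, *Ccn2* had the highest mean level of the members over the 11 libraries, 4.52 CPM per kb, and *Ereg* the lowest, 0.0103. *Met* was at 2.37, *Hbegf* at 2.09, *Egfr* at 1.29 and *Igf2* at 1.01 CPM per kb. The lower levels were 0.531 for *Areg*, 0.183 for *Igf1*, 0.165 for *Hgf* and 0.0926 for *Btc*. The per-length values of neighbours in this order overlapped between libraries throughout: those of *Ccn2* ran from 2.77 to 6.83 and those of *Met* from 1.61 to 4.38, and those of *Igf1* (0.0588 to 0.400) covered those of *Hgf* (0.0789 to 0.251) entirely. The receptors *Egfr* and *Met* were covered by at least 274 and 219 reads in every library, whereas *Btc* had 3 to 24 reads and *Areg* 8 to 59.

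**Figure D1:**
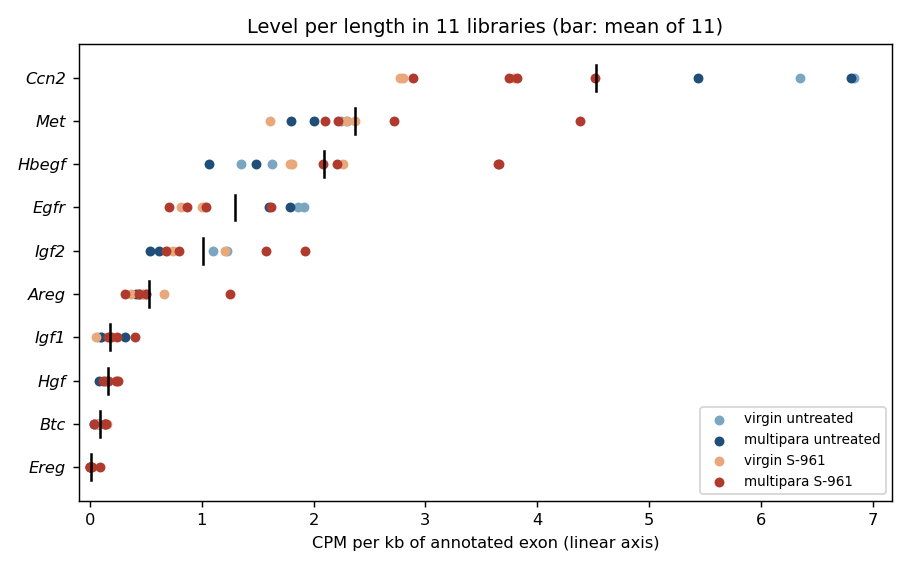
Level of each member in CPM per kb of annotated exon (linear axis), with 1 point per library coloured by group and a bar at the mean of 11 libraries. *Ccn2*, *Met*, *Hbegf*, *Egfr* and *Igf2* average above 1 CPM per kb, and *Ereg* is at 0 in 9 libraries.

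*Egfr* was at 21.1 and 21.7 CPM in virgin untreated 1 and 2 and at 18.1 and 20.2 CPM in multipara untreated 1 and 2. With S-961 it was at 11.3, 11.6 and 9.22 CPM in virgin 1 to 3 and at 9.87, 7.97, 18.4 and 11.8 CPM in multipara 1 to 4. All S-961 libraries except multipara S-961 3 were below all untreated ones, and that library overlapped with multipara untreated 1. Averaged over parity, *Egfr* fell by 0.84 on the log2 scale (SE 0.19), 1.79-fold, with an adjusted p of 0.00412 in edgeR's quasi-likelihood test. On the total count scale the averaged difference was -0.29 (adjusted p = 0.297), with -0.53 in virgin and -0.061 in multipara islets, none called. With TMM factors the difference was -0.997 in virgin islets (SE 0.28, adjusted p = 0.0179) and -0.67 in multipara islets (SE 0.27, adjusted p = 0.0673). Without multipara S-961 3 the multipara difference was -0.96 (adjusted p = 0.00192), and the virgin call was lost without virgin S-961 3 (adjusted p = 0.0537), virgin untreated 1 (0.0787) or virgin untreated 2 (0.0944).

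*Hbegf*, which encodes a heparin-binding ligand of EGFR and ERBB4, went the other way. Its level was 7.88 and 6.53 CPM in virgin untreated islets and 5.14 and 7.19 CPM in multipara untreated islets. With S-961 it was 8.75, 10.9 and 8.67 CPM in virgin 1 to 3 and 17.6, 17.7, 10.1 and 10.7 CPM in multipara 1 to 4. Every S-961 library was above every untreated one, and multipara S-961 1 and 2 were the highest. *Hbegf* rose by 0.79 (SE 0.20) on the log2 scale averaged over parity, 1.73-fold, with an adjusted p of 0.00731 in the quasi-likelihood test. The difference was 1.19 (SE 0.29, adjusted p = 0.00867) in multipara islets, where it was lost without multipara untreated 1 (0.96, adjusted p = 0.0932), and 0.39 (SE 0.29, adjusted p = 0.316) in virgin islets. The 2 libraries with the most *Hbegf* also had the highest acinar marker sums, 12713 and 11464 CPM, against 1650 to 8917 CPM in the other S-961 libraries, and the part of acinar RNA in this difference was not tested.

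The other 3 ligands of EGFR were near the limit of detection. *Areg*, encoding amphiregulin, was between 0.453 and 0.804 CPM in 9 of the 11 libraries, with multipara S-961 1 at 0.380 and multipara S-961 3 at 1.52. *Btc*, encoding betacellulin, was at 0.574 and 0.242 CPM in virgin untreated, 0.313 and 0.189 in multipara untreated, 0.310, 0.694 and 0.226 in virgin S-961 and 0.651, 0.611, 0.617 and 0.177 in multipara S-961 libraries. The groups overlapped for both genes, and neither passed the threshold with S-961 (averaged difference 0.30, SE 0.42, for *Areg* and 0.51, SE 0.52, for *Btc*). *Ereg*, encoding epiregulin, had 18 reads in all, 15 in multipara S-961 3 and 3 in multipara S-961 1. It was at 0 in the other 9 libraries, where 3 reads would correspond to 0.0873 to 0.189 CPM, and it did not pass the filter on low counts, so that no test was made.

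**Figure D2:**
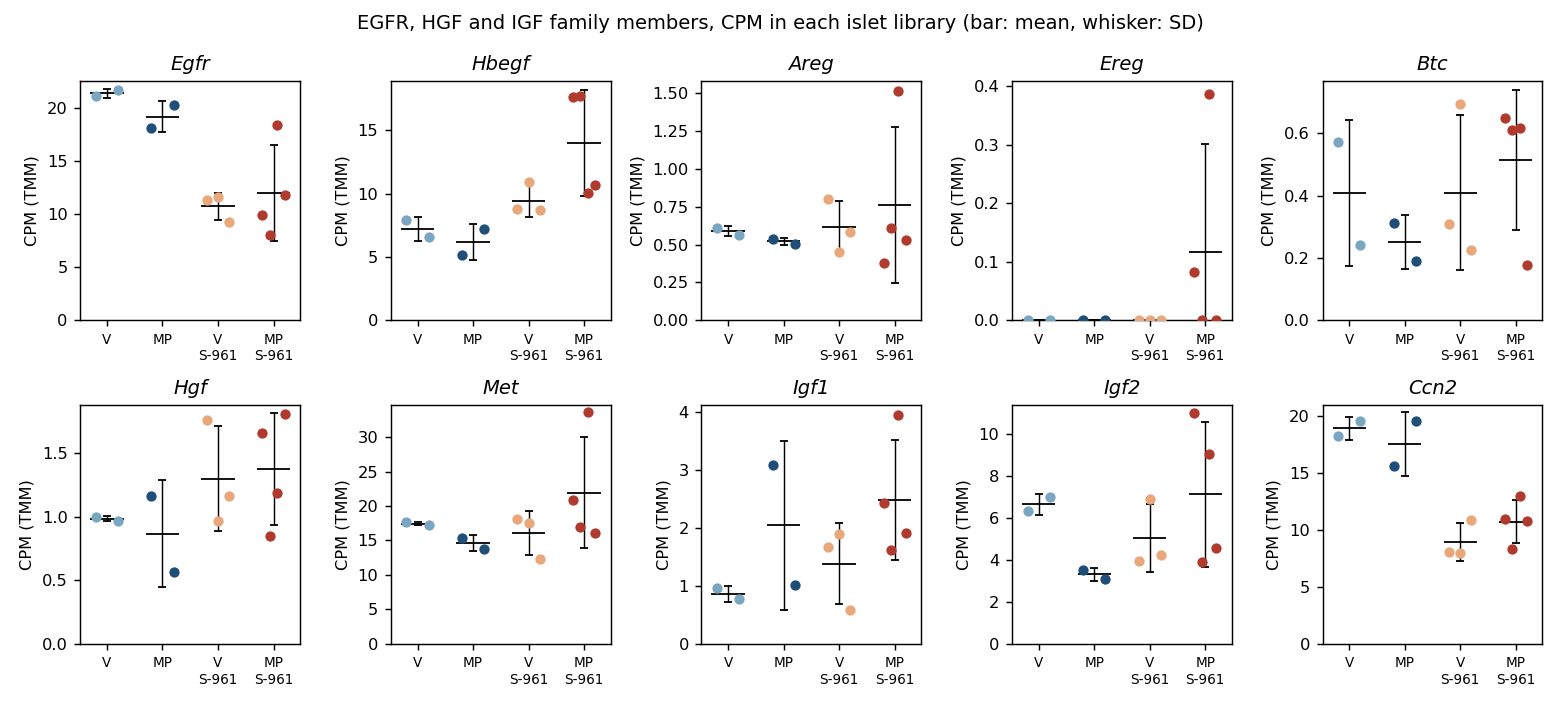
CPM of each member in each library by group (V, virgin; MP, multipara), with a bar at the mean and whiskers of 1 SD; each panel has its own linear axis starting at 0. *Hbegf* is higher and *Ccn2* lower in all 7 S-961 libraries than in all 4 untreated ones, whereas *Egfr* in multipara S-961 3 (18.4 CPM) reaches the untreated range.

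*Hgf*, encoding hepatocyte growth factor, was at 0.995 and 0.967 CPM in virgin untreated and 1.16 and 0.567 CPM in multipara untreated islets. With S-961 it was at 1.76, 0.966 and 1.16 CPM in virgin and 1.65, 0.844, 1.18 and 1.80 CPM in multipara libraries. The groups overlapped, and the averaged difference of 0.52 (SE 0.32) had an adjusted p of 0.197 in the quasi-likelihood test. *Met*, encoding its receptor, was at 17.6 and 17.3 CPM in virgin untreated and 15.4 and 13.8 CPM in multipara untreated islets, and at 18.2, 17.6 and 12.4 CPM in virgin S-961 islets. The multipara S-961 libraries held 20.8, 17.0, 33.6 and 16.1 CPM, all above the multipara untreated ones, with replicate 3 far above the rest. The *Met* difference was 0.58 (SE 0.28, adjusted p = 0.127) in multipara islets and -0.12 (SE 0.29, adjusted p = 0.778) in virgin islets.

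*Igf1*, an endocrine and local growth factor, was at 0.957 and 0.766 CPM in virgin untreated islets, 3.08 and 1.01 CPM in multipara untreated islets and 1.67, 1.90 and 0.582 CPM in virgin S-961 islets. The multipara S-961 libraries held 2.44, 1.63, 3.96 and 1.92 CPM. Multipara S-961 3 and multipara untreated 1 were the highest, and S-961 and untreated libraries overlapped. *Igf1* was not called with S-961 (averaged difference 0.48, SE 0.42, adjusted p = 0.358). The 2 libraries with the most *Igf1* were the one with the highest stromal marker sum (multipara S-961 3, 293 CPM) and the one with the highest macrophage marker sum (multipara untreated 1, 846 CPM). Multipara untreated 1 also had the highest lymphocyte and stromal sums of the untreated libraries (1060 and 157 CPM), and the part of those cells in the *Igf1* level was not tested.

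*Igf2*, a fetal growth factor that remains expressed in rodent islets, was at 6.31 and 7.01 CPM in virgin untreated and 3.53 and 3.09 CPM in multipara untreated islets. It was at 3.96, 6.91 and 4.24 CPM in virgin S-961 and 11.01, 3.90, 9.03 and 4.55 CPM in multipara S-961 islets. Both multipara untreated libraries were below all others. The S-961 difference was 1.10 (SE 0.44, adjusted p = 0.0672) in multipara islets and -0.40 (SE 0.43, adjusted p = 0.491) in virgin islets, and the former passed the threshold without multipara S-961 2 (1.34, adjusted p = 0.0223) or 4 (1.27, adjusted p = 0.0427). The same-strand transcript *Gm49394* overlaps *Igf2* and had up to 1.02 CPM, and the *Igf2* count was not whole in 5 libraries, so that some reads were divided between genes. The same held for the *Ccn2* count in 5 libraries and the *Hgf* count in 2. *Gm43489*, on the strand of *Hgf* and overlapping it, had at most 0.134 CPM.

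*Ccn2* was at 18.2 and 19.6 CPM in virgin untreated and 15.5 and 19.5 CPM in multipara untreated islets. With S-961 it was at 8.01, 7.94 and 10.8 CPM in virgin and 10.9, 8.26, 12.9 and 10.7 CPM in multipara islets. All S-961 libraries were below all untreated libraries. It fell by 0.89 (SE 0.14) on the log2 scale averaged over parity, 1.86-fold, with an adjusted p of 0.000408 in the quasi-likelihood test. The difference was -1.08 (SE 0.21, adjusted p = 0.00268) in virgin and -0.71 (SE 0.20, adjusted p = 0.0164) in multipara islets. The multipara call was lost without multipara untreated 2 (-0.53, adjusted p = 0.153), in a fit of the multipara libraries alone (-0.71, adjusted p = 0.0501) and on the total count scale (-0.10, adjusted p = 0.714). On that scale the virgin call was lost as well (-0.62, adjusted p = 0.0518). Endothelial markers moved the same way (482 to 664 CPM in sum with S-961 and 653 to 777 without). Of these 8 markers 5 were called lower and none higher, where 25.9% of all genes were called lower. Their part in the *Ccn2* difference was not tested.

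With S-961 against no treatment, averaged over parity, 3 of the 9 members tested were called, *Egfr* and *Ccn2* lower and *Hbegf* higher, where 52.1% of all 17996 genes tested were called (26.1% higher and 25.9% lower). The count of members was thus below the share of all genes. Their median log2 difference was 0.35 against -0.01 for all genes, with 7 above 0 and 2 below. In virgin islets 2 of 9 were called, both lower, against 36.5% of all genes (18.8% higher and 17.6% lower). In multipara islets 1 was higher and 1 lower, against 37.6% of all genes (18.2% higher and 19.4% lower). *Hbegf* and *Ccn2* did not overlap between all S-961 and all untreated libraries, which held for 36.4% of genes (17.4% higher and 19.1% lower). Within virgin islets *Egfr*, *Hbegf* and *Ccn2* did not overlap, which held for 68.3% of genes, and within multipara islets *Hbegf*, *Met*, *Igf2* and *Ccn2* did not, which held for 49% of genes. All 3 averaged calls were kept when each library was left out in turn, with adjusted p-values of at most 0.0400. Scaling to total counts in place of TMM moved the median of all genes by 0.52 and the share of called genes that were higher from 50.2% to 82.9%. On that scale *Hbegf* was still called (1.31, adjusted p = 0.000138), whereas *Egfr* (-0.29, adjusted p = 0.297) and *Ccn2* (-0.36, adjusted p = 0.0737) were below 0 and below the median of 0.51 but not called, and *Met* (0.77, adjusted p = 0.0218), *Hgf* (1.03, adjusted p = 0.0260) and *Igf2* (0.89, adjusted p = 0.0432) were called higher.

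**Figure D3:**
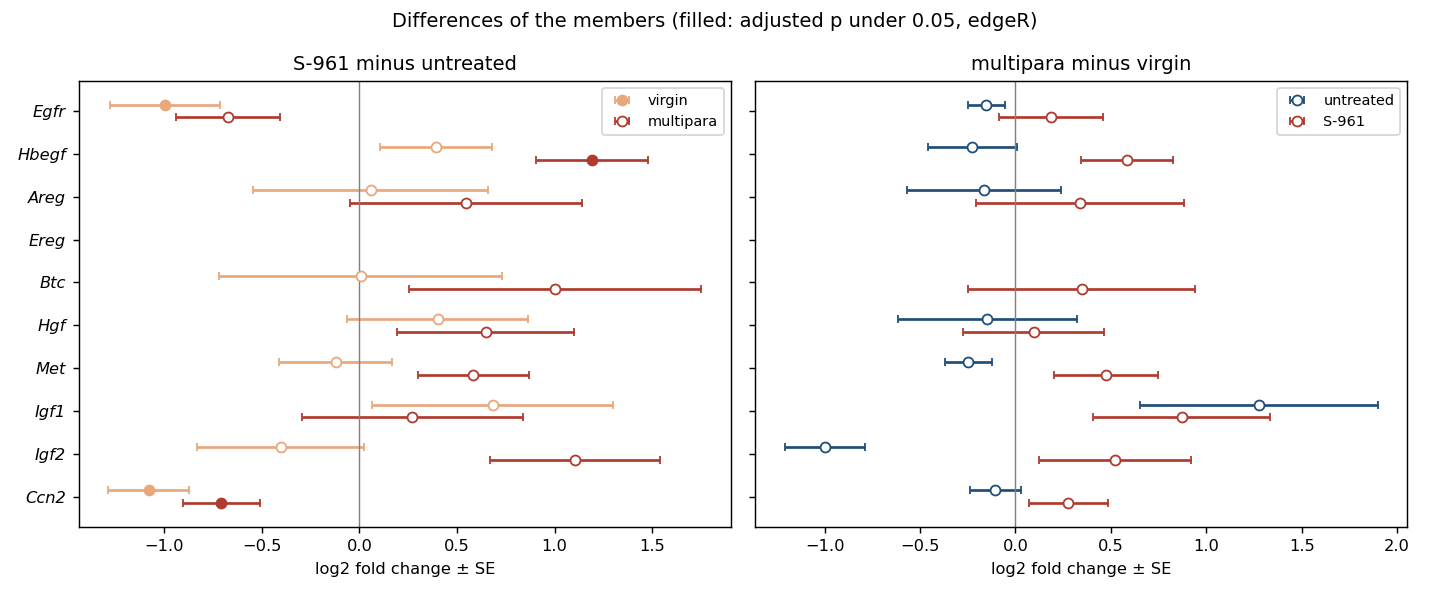
Log2 fold change of each tested member with its standard error, for S-961 minus untreated (left, within virgin and within multipara) and multipara minus virgin (right, untreated and with S-961); filled points have an adjusted p under 0.05 in edgeR's quasi-likelihood test. The filled points are *Egfr* in virgin, *Hbegf* in multipara and *Ccn2* in both, and no point is filled in the parity comparisons.

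Between multipara and virgin islets with S-961, 0 of 9 members were called by edgeR's quasi-likelihood test and 0 by DESeq2, where edgeR called 0% of 16784 genes and DESeq2 called 369 (without multipara S-961 4, edgeR called 525 genes and 0 members). At an unadjusted p under 0.05 there was 1 member, *Hbegf* (0.58, SE 0.24, adjusted p = 0.479), against 9.71% of all genes. All 9 differences were above 0, with a median of 0.35 against 0.00 for all genes, the largest being *Igf1* (0.87, SE 0.46) and the smallest *Hgf* (0.09, SE 0.37). The 8 stromal markers (median difference 1.42) and the 8 acinar markers (1.02) were also higher in multipara islets by their medians, with none called, the stromal sums of the multipara libraries (133 to 293 CPM) were all above those of the virgin ones (68.2 to 72.3 CPM), and their part in the members' differences was not tested. No member separated the groups completely, which 8.74% of genes did. Multipara S-961 3 was the highest of the 7 S-961 libraries for 6 of the 10 members (*Met*, *Ccn2*, *Igf1*, *Egfr*, *Ereg* and *Areg*), and for 25.5% of all genes. Without that library *Egfr* (-0.11) and *Areg* (-0.26) were below 0. Without multipara S-961 4 *Igf1* was at 0.98, *Hbegf* at 0.70 (adjusted p = 0.175), *Igf2* at 0.69, *Btc* at 0.63, *Met* at 0.60 (adjusted p = 0.316), *Areg* at 0.48, *Ccn2* at 0.28, *Egfr* at 0.20 and *Hgf* at -0.055, none called.

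Without treatment, 8 members could be tested between multipara and virgin islets, and 0 were called by edgeR or by DESeq2, where edgeR called 0% of 15812 genes and DESeq2 called 56. *Igf2* had the smallest unadjusted p of the members, 0.00670 in edgeR's quasi-likelihood test, with a difference of -0.999 (SE 0.21, adjusted p = 0.719), and it was the only member with an unadjusted p under 0.05, against 5.62% of all genes. *Igf1* was at 1.28 (SE 0.62, adjusted p = 0.719). Without multipara untreated 2, which leaves only the multipara library with the highest macrophage, lymphocyte and stromal sums of the untreated ones, *Igf1* was called (1.85, adjusted p = 0.0184), and without multipara untreated 1 it was at 0.20. *Egfr*, *Areg*, *Met* and *Igf2* were lower and *Igf1* higher in both multipara libraries than in both virgin ones, which 35.5% of genes did in either direction.

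The difference between the S-961 effects of the parity groups was tested as an interaction and called 0 of 9 members, where it called 0% of 17996 genes and DESeq2 called 81 genes and 0 members. *Igf2* had the largest value, 1.51 (SE 0.60, adjusted p = 0.728), and was the only member with an unadjusted p under 0.05, against 6.55% of all genes. *Hbegf* was at 0.80 (SE 0.40, adjusted p = 0.768) and *Egfr* at 0.32 (SE 0.39, adjusted p = 0.926). The calls of *Egfr* in virgin islets and of *Hbegf* in multipara islets were therefore not shown to differ between the parity groups.

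The lists of other genes of these systems were chosen with earlier results of these data known, so that their shares of calls are a description. There were 9 lists with 90 genes, of which 79 could be tested across all libraries. With S-961, averaged over parity, 30 of them were called higher and 6 lower, together fewer than the 52.1% called among all genes. The higher calls were above the share of all genes (26.1%) and the lower ones below it (25.9%). The immediate early list, which the analysis plan did not name, gave 7 of the higher calls and 0 of the lower ones. When each library was left out in turn, 6 of these 36 calls were lost at least once (*Amotl1*, *Ankrd1*, *Erbb4*, *Igf2r*, *Nt5e* and *Spry1*), as were 15 of 23 in virgin and 18 of 31 in multipara islets. Among the 16 tested ERK feedback and target genes, 11 rose and 2 fell, against 26.1% and 25.9% of all genes. Their median log2 difference was 0.79 against -0.01 for all genes. *Dusp4*, a nuclear phosphatase of ERK, was at 2.26 to 2.99 CPM without S-961 and at 22.8 to 33.5 CPM with it, a log2 difference of 3.44 (SE 0.17, adjusted p = 1.45e-06). *Dusp6*, its cytoplasmic counterpart, rose by 1.31 (SE 0.14), from 9.96 to 15.4 CPM in the untreated libraries to 27.7 to 39.2 CPM with S-961. The pathway inhibitors *Spry4* (1.68, SE 0.22) and *Spred3* (1.36, SE 0.19), the ETS factor *Etv5* (2.10, SE 0.34) and *Phlda1* (0.90, SE 0.14) also rose.

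The 2 ERK feedback genes that fell were *Lrig1* (-0.81, SE 0.13), which encodes a protein that promotes the degradation of ErbB receptors, and *Spry1* (-0.67, SE 0.22), which was named after its value was seen and lost its call without virgin S-961 2, virgin untreated 2 or multipara untreated 1 (adjusted p = 0.0514, 0.115 and 0.0770). The fall of *Spry1* was called in virgin islets (-1.17, and -0.90 without virgin untreated 2), whereas 0 genes of this list were called lower in multipara islets. There *Spry1* was at 6.81 and 8.22 CPM without S-961 and at 4.82 to 9.83 CPM with it. On the total count scale 14 genes of this list were called higher and 0 lower, with *Lrig1* at -0.28 and *Spry1* at -0.14. *Dusp4*, *Dusp6*, *Spry4*, *Spred3*, *Phlda1* and *Etv5* were called in virgin islets and in multipara islets separately. Of these, *Etv5* and *Phlda1* lost the call in either parity group, and *Spred3* in virgin islets, when a library was left out (adjusted p = 0.0504 to 0.0737). *Etv1* was called in multipara (1.03, SE 0.17) and was at 0.00 in virgin islets, but its interaction had an adjusted p of 0.409. Among 10 immediate early genes, which growth factors and many stresses induce, 7 rose and 0 fell, led by *Fosb* (2.81, SE 0.30) and *Fos* (1.18, SE 0.15). Of all genes, 26.1% were called higher and 25.9% lower. The immediate early list was not among those named in the analysis plan.

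**Figure D4:**
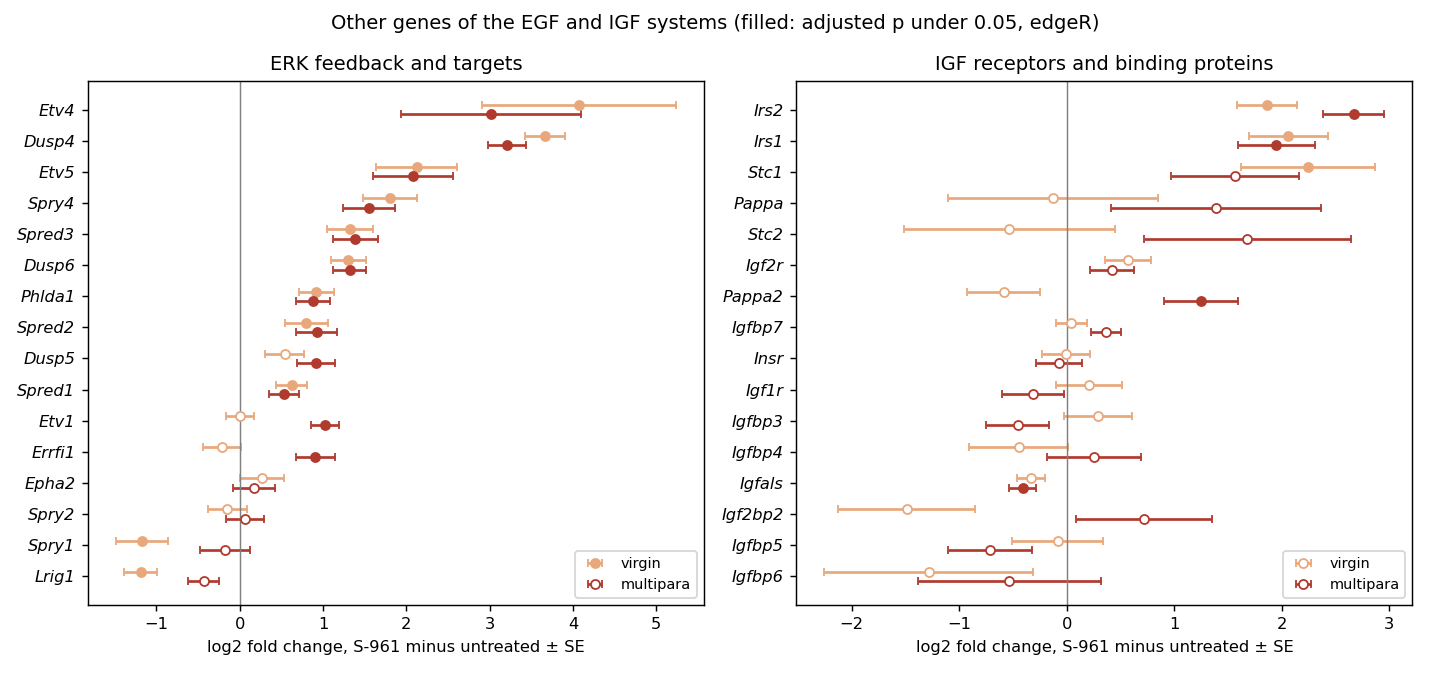
Log2 fold change of S-961 minus untreated with its standard error in virgin and in multipara islets, for the ERK feedback and target list (left) and the IGF receptor and binding protein list (right); filled points have an adjusted p under 0.05. *Dusp4*, *Dusp6*, *Spry4*, *Irs1* and *Irs2* are filled and above 0 in both parity groups, and *Lrig1* is below 0 in both but filled in virgin only.

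Among the other EGF-family ligands, 1 of 5 was called, *Egf* itself, which was at 11.4 to 16.4 CPM without S-961 and at 23.1 to 36.4 CPM with it (1.10, SE 0.13, adjusted p = 5.04e-05). Of the other 3 receptors of the family, *Erbb4* was called higher, at 0 to 0.0630 CPM without S-961 and 0.0647 to 0.453 CPM with it. The *Erbb4* call was lost without virgin untreated 1, virgin untreated 2 or multipara untreated 1 (adjusted p = 0.0634, 0.0605 and 0.0727). *Erbb3* ran from 3.21 to 6.45 CPM without and from 2.27 to 9.94 CPM with S-961. Among 5 genes of ligand shedding, *Rhbdf1*, which helps the protease ADAM17 to the cell surface, rose by 0.79 (SE 0.16) and none fell. In each of these lists the calls were fewer than the 52.1% among all genes.

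In the IGF list, 4 of 16 genes rose and 1 fell, together fewer than the 52.1% called among all genes. *Irs2* was at 25.2 to 37.7 CPM without S-961 and at 104 to 224 CPM with it, a log2 difference of 2.27 (SE 0.20, adjusted p = 1.19e-05), and *Irs1* went from 2.83 to 3.85 CPM to 8.35 to 17.4 CPM (2.005, SE 0.26, adjusted p = 9.67e-05). *Stc1*, encoding an inhibitor of the protease that cleaves IGF binding proteins (1.90, SE 0.43), and *Igf2r*, encoding the receptor that clears IGF2 (0.50, SE 0.15), also rose, the latter with adjusted p-values of 0.0537, 0.0534 and 0.0642 without virgin untreated 1, virgin untreated 2 or multipara untreated 1. *Igfals*, for a partner of circulating IGF complexes, fell by 0.37 (SE 0.09) but was at 0.15 on the total count scale. *Insr* and *Igf1r*, the genes of the receptors themselves, did not pass the threshold, though *Insr* did on the total count scale (0.50, adjusted p = 0.0335). *Insr* ran from 50.2 to 63.5 CPM without S-961 and from 37.2 to 70.0 CPM with it.

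Of 10 genes of HGF activation and related receptors, 1 rose and 2 fell, together fewer than the 52.1% called among all genes. *Spint1* (-0.54, SE 0.11) and *Spint2* (-0.61, SE 0.12), which encode inhibitors of the proteases that activate HGF, fell, and *Plaur*, encoding the urokinase receptor, rose (1.58, SE 0.39). On the total count scale *Spint1* was at -0.01 and *Spint2* at -0.09, neither called. *Ccn1*, which encodes a relative of CCN2 and is also a YAP target, rose by 0.95 (SE 0.21, adjusted p = 0.00292), opposite in direction to *Ccn2*. It was the 1 gene called of 3 tested relatives. Of 11 other YAP targets and partners, 3 rose (*Tead1* by 0.74, *Amotl1* by 0.41 and *Ankrd1*, which was under 1 CPM in all libraries) and *Nt5e* was called lower (-1.70, SE 0.64). Together these calls were also fewer than the 52.1% among all genes. The *Nt5e* call rested on multipara untreated 1, at 4.91 CPM against 0.181 to 0.695 CPM in the other 10 libraries, and without it the difference was 0.17 (adjusted p = 0.838). *Ankrd1* lost its call when any 1 of the 4 untreated libraries was left out (adjusted p = 0.0597 to 0.0742), and *Amotl1* in 5 of the 11 fits with a library left out, with adjusted p-values up to 0.106 (without virgin untreated 1).

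None of the 79 listed genes tested was called between multipara and virgin islets with S-961, and none of 72 without treatment, in edgeR's quasi-likelihood test, where DESeq2 called 2 and 4. The smallest unadjusted p-values belonged to *Atf3* (1.19, SE 0.32) and *Etv1* (0.56, SE 0.16) with S-961 and to *Errfi1* (-1.09, SE 0.13) and *Etv1* (-0.48, SE 0.08) without.

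**Figure D5:**
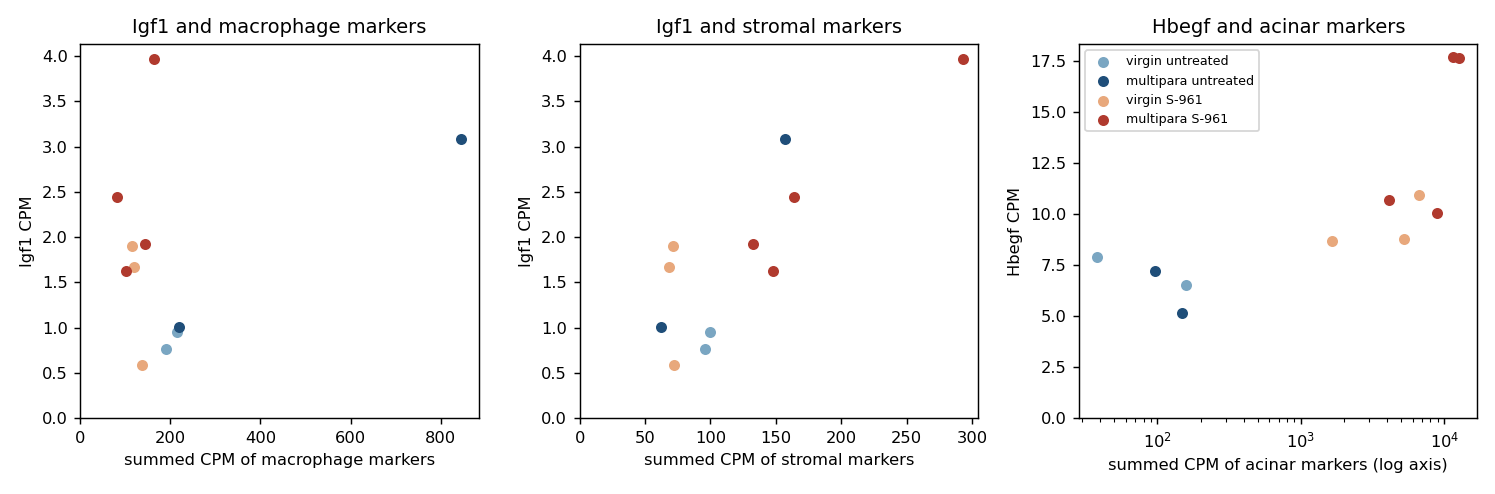
*Igf1* CPM against the summed CPM of 8 macrophage markers and of 8 stromal markers, and *Hbegf* CPM against the summed CPM of 8 acinar markers (log axis), with 1 point per library coloured by group. *Igf1* is highest in the libraries with the highest stromal sum (293 CPM) and the highest macrophage sum (846 CPM), and *Hbegf* is highest in the 2 libraries with acinar sums of 12713 and 11464 CPM.

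The genes most like each member were sought by the correlation of log2 CPM over the 11 libraries, among 12594 or 12595 genes with a mean log2 CPM of at least 1. The libraries share the division into S-961 and untreated, so that these values are a description. *Egfr* was closest to *Crebrf* (r = 0.99), *Washc2* (0.99) and *Klhl24* (0.98), and *Ccn2* to *1700008J07Rik* (0.96), *Map2k5* (0.96) and *Rab3ip* (0.96). *Hbegf* was closest to *Smc3* (0.95), *Vasn* (0.95) and *Nup107* (0.94). *Met* was closest to *Zfp608* (0.98), *Gria3* (0.95) and *Eps8l2* (0.94), and *Igf1* to *Spns2* (0.97), *Cntrl* (0.95) and *Dock10* (0.93). The values were lower for *Igf2* (*Ston2* 0.89, *Arnt2* 0.88, *Asap2* 0.88), *Hgf* (*Xpo7* 0.86, *Zfp276* 0.85, *Snx29* 0.85), *Areg* (*Cdkl1* 0.84, *Eya1* 0.82, *Lima1* 0.82) and *Btc* (*Tmprss2* 0.84, *Slc20a2* 0.84, *Sema3e* 0.83).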

How the data were processed

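The authors deposited 1 table of estimated counts (RSEM expected counts) per library, without normalization, from a stranded poly(A) mRNA kit; the submitters' processing notes name STAR and RSEM without versions, and the strand setting of the counting is not given in the sources used here. Estimated counts were rounded to whole counts. Of 55536 identifiers, 55450 matched GENCODE M21 (GRCm38), which gave coordinates and exon lengths. Libraries were grouped by the labels. Total counts of 22028507 to 32234146 gave the lowest counts for *Ereg*, *Btc*, *Areg*, *Hgf* and *Igf1*. No library repeated another. The S-961 libraries are as many as the mice of those groups in the study, whereas no source used here ties the untreated libraries to separate mice, so that p-values measure the spread between libraries, which may be partly technical.

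Tests used edgeR 4.0.16 in R 4.3.3 (TMM factors, filterByExpr with a minimum count of 10 and a minimum total of 15, quasi-likelihood F-test, Benjamini-Hochberg adjustment over all genes tested, threshold 0.05). Parity was compared within each treatment on its own libraries. The S-961 effects and the interaction were fitted on all 11 libraries; the S-961 comparisons share a fit, and the averaged one uses the libraries of both others. CPM values come from a joint normalization. Correlations used a prior count of 2. Alternatives were DESeq2 1.42.0, RLE factors, no filter, other sets of libraries, the replicate number as a block, each library left out and, chosen after seeing the data, total count scaling. On simulated counts with 200 genes changed 4-fold, edgeR recovered 195 (S-961 parity design, 9 false calls, 16466 genes), 179 (untreated, 4 false, 15589 genes) and 200 (S-961 averaged, 9 false, 17573 genes). The changed genes were taken from those above a low expression cut, and counts were drawn independently with a spread set by expression level. Recovery of differences below 4-fold, of the weakest genes, or under the library differences seen here was not tested. The members' largest parity differences were 1.83-fold with S-961 and 2.42-fold without treatment, both for *Igf1*. The members and lists were chosen with earlier results of these data known. All members are named; of the listed genes, up to 6 per list and comparison were named by adjusted p, or up to 3 by p where none passed. Figures were drawn with matplotlib 3.10.9 under Python 3.11.15.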

Additional observations from a re-analysis of the deposited data

Results flagged for a closer look

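*Btc* stood out in multipara S-961 4, at 0.177 CPM against 0.611 to 0.651 CPM in the other 3 libraries of its group, a gap wider than Dixon's 95% limit for 4 values. The rule was applied to this group for each of the 10 members, and *Btc* alone passed the limit. Chance marks about 1 group in 20 in this way, and the value rests on a handful of reads, since *Btc* had 3 to 24 reads per library.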

How the results depend on the processing

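The averaged calls of *Egfr*, *Hbegf* and *Ccn2* kept their direction under every alternative run and their call under all but total count scaling, where *Egfr* and *Ccn2* lost it. The number of genes called was moved by DESeq2 to 369 for parity with S-961, 56 without treatment and 81 for the interaction, each from 0, and the listed genes called to 2, 4 and 3. Without the filter it was 3 without treatment and 4 for the interaction. In multipara islets DESeq2 called 4 members in place of 2, adding *Egfr* and *Igf2*, and a fit of the multipara libraries alone called 1 member and 4428 genes in place of 6768. No filter called 3 members there, adding *Igf2* (1.15, adjusted p = 0.0417). Total count scaling also called 3, losing *Ccn2* (-0.10, adjusted p = 0.714) and adding *Met* (1.19, adjusted p = 0.0178) and *Igf2* (1.70, adjusted p = 0.0150), with *Egfr* at -0.061. In virgin islets total count scaling called 1 member, *Hbegf* (0.86, adjusted p = 0.0231), which the main fit had not called. It lost the calls of *Egfr* (-0.53, adjusted p = 0.237) and *Ccn2* (-0.62, adjusted p = 0.0518) there and turned *Met* (0.35) and *Igf2* (0.068) above 0. It raised the share of called genes that were higher from 51.7% to 83.4% in virgin and from 48.3% to 85.7% in multipara islets. The cause of these shifts was not tested.

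With single libraries left out, genes called ran from 0 to 525 for parity with S-961 (525 without multipara S-961 4), 0 to 1738 without treatment (1738 without multipara untreated 2, 53 without multipara untreated 1), 0 to 45 for the interaction (45 without multipara S-961 4, 32 without multipara untreated 2), 3053 to 7466 for S-961 in virgin (3053 without virgin untreated 2, 3503 without virgin untreated 1) and 3618 to 7451 in multipara (3618 without multipara untreated 1). Members called ran from 1 to 2 in virgin, 1 to 3 in multipara and 0 to 1 in the untreated comparison. Some differences of members that were not called changed sign. For parity with S-961 *Hgf* ran from -0.085 to 0.37, *Egfr* from -0.11 to 0.34 and *Areg* from -0.26 to 0.57, and without treatment *Ccn2* ran from -0.26 to 0.024 and *Hgf* from -0.81 to 0.26. In the interaction *Areg* ran from -0.097 to 0.73, *Igf1* from -0.99 to 0.62 and *Hgf* from -0.16 to 0.87. For S-961 in virgin islets *Areg* ran from -0.18 to 0.24, *Btc* from -0.60 to 0.76 and *Met* from -0.22 to 0.035, and in multipara islets *Areg* ran from -0.038 to 0.77 and *Igf1* from -0.30 to 1.30.

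Replicate numbers were not taken to pair the samples. Deviations of same-numbered libraries correlated at 0.056, 0.012 and 0.093 within S-961, at 0.28 within untreated, where 2 libraries a group leave a single value, and at -0.15 to 0.12 across treatments. With the replicate number as a block, which leaves multipara S-961 4 without a partner, 342 genes were called for parity with S-961 and 34 for the interaction, no call of a member changed, and *Hgf* (-0.063, parity with S-961) and *Areg* (-0.19, S-961 in virgin) changed sign.

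Counts were lowest for *Ereg* (0 to 15 reads), *Btc* (3 to 24), *Areg* (8 to 59) and *Hgf* (9 to 61). *Igf1* had 69 and 16 reads in the multipara untreated libraries (replicates 1 and 2). Each group had 2 to 4 libraries, and how much of each error comes from depth was not tested.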
